A study of Mus musculus with 6 samples.

Results

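The 10 genes described here move calcium in a muscle fiber. They were taken from a fixed list of symbols, namely *Ryr1*, *Cacna1s*, *Casq1*, *Casq2*, *Atp2a1*, *Atp2a2*, *Sln*, *Pvalb*, *Slc8a3* and *Cacna1g*, and all 10 were present among the 12353 genes of the deposited table. RNA was sequenced from the gastrocnemius, a calf muscle made mostly of fast-twitch fibers, of 3 Nogo-/- mice, which lack the reticulon Nogo, and 3 Nogo+/+ mice as wild-type controls, with 1 library per mouse. The labels name no treatment for either group, and the strain, age and sex of these 6 mice are not given in the sources used here. Libraries are called by the column numbers of the table, Samples 4 to 6 for Nogo-/- and Samples 1 to 3 for Nogo+/+, which are not replicate numbers of the labels. Levels are FPKM, the fragments of a gene scaled for transcript length and library depth, so that genes can be ordered by level as well as compared between groups.

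A muscle fiber contracts when calcium leaves its sarcoplasmic reticulum and relaxes when calcium returns there. The dihydropyridine receptor in the surface membrane senses depolarization and opens the ryanodine receptor of the reticulum, calsequestrin holds calcium inside the store, and the SERCA pumps carry calcium back. Fast fibers also hold the soluble buffer parvalbumin, and exchangers in the membrane carry calcium across it in return for sodium.

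The knockout was checked first. *Rtn4*, the gene of Nogo, was at 0.423, 0.312 and 0.368 FPKM in the Nogo-/- libraries, against 414, 429 and 425 FPKM in the Nogo+/+ libraries. All 6 libraries thus matched their labels. The depth recovered from low FPKM values was 13718000 to 14412000 fragments per library in Nogo-/- and 13466000 to 14376000 in Nogo+/+. The fast fiber markers carried the muscle's identity in every library, with a summed level of 27189 to 29256 FPKM over 10 genes in Nogo-/- and 29072 to 29841 FPKM in Nogo+/+. The 9 slow fiber markers summed to 2457 to 2674 FPKM in Nogo-/- and 2538 to 2781 FPKM in Nogo+/+. In the test, 0 markers of either list passed (limma, adjusted p under 0.05), with 2 slow markers lower at an unadjusted p under 0.05. The test follows quantile normalization, which constrains genes of the highest ranks. Many fast markers have such ranks, *Tnnt3* being 3rd of all genes, so for them the test could show little and no conclusion is drawn from it. Keratinocyte markers of skin stood apart in Sample 6 of Nogo-/-, at a sum of 246 FPKM against 5.59 to 16.2 FPKM in the other 5 libraries, where 6 of the 11 markers were listed at 0 in at least 1 library.

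Of the 10 calcium handling genes, 1 rose in Nogo-/- muscle, 0 fell and 9 did not pass the test. The gene that rose was *Slc8a3*, a sodium-calcium exchanger, by 1.49 times in mean FPKM. Over all 12353 genes, 4.64% passed the same test, 1.89% higher and 2.75% lower in Nogo-/-, so the count of 1 among 10 genes is too small to set apart from that share. At an unadjusted p under 0.05 there were 5 of the 10, 3 higher and 2 lower, against 20.5% of all genes. The FPKM of the groups did not overlap for 2 of the 10, *Slc8a3* and *Cacna1s*, both higher in Nogo-/-, where 15.9% of all genes were separate in that direction and 25.9% in either. The median difference over the 10 genes was -0.028 on the log2 scale, beside -0.0067 over all genes. From these same libraries, the study reported the RNA levels of both *Slc8a3* and *Cacna1g* as altered in Nogo-/-. It called genes by a permutation procedure with a fold change cutoff, which differs from the test used here, and *Cacna1g* did not pass here. The values of these genes here are not independent evidence of their direction.

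**Figure D1:**
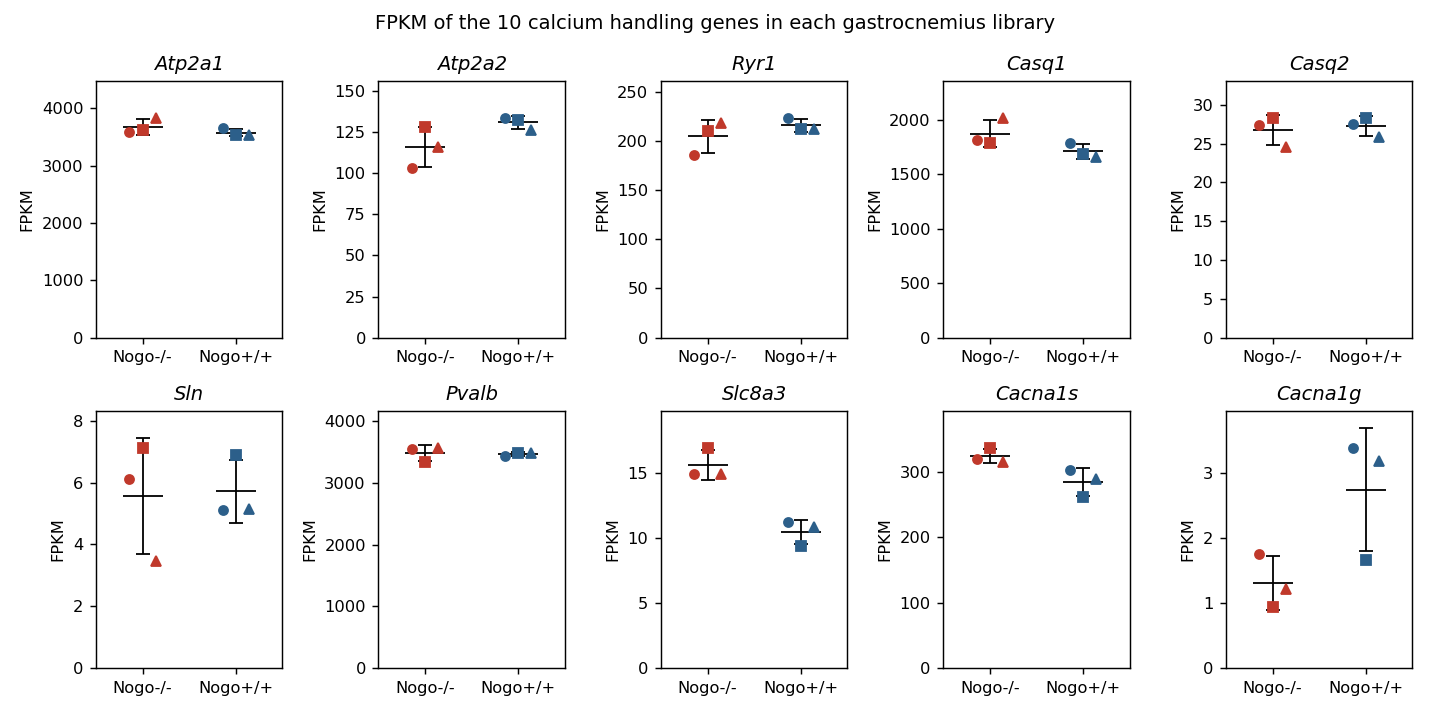
FPKM of each of the 10 calcium handling genes in every library, 1 panel per gene with its own axis, Nogo-/- left of Nogo+/+. Circles, squares and triangles are Samples 4, 5 and 6 in Nogo-/- and Samples 1, 2 and 3 in Nogo+/+, and the bars are the mean ± SD (n = 3 each). *Slc8a3* lies between 14.9 and 16.9 FPKM in Nogo-/- and between 9.40 and 11.2 FPKM in Nogo+/+, whereas the groups of *Cacna1g* overlap.

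The order of the levels was the same in both groups: *Atp2a1*, *Pvalb*, *Casq1*, *Cacna1s*, *Ryr1*, *Atp2a2*, *Casq2*, *Slc8a3*, *Sln* and *Cacna1g*, from highest to lowest. No neighbours in this order overlapped in their ranges in either group. The closest in relative terms were *Atp2a1* and *Pvalb*, with lowest and highest values of 3584 and 3569 FPKM in Nogo-/-, and 3539 and 3489 FPKM in Nogo+/+. *Atp2a1* ranked 13th of all genes by mean FPKM and *Cacna1g* ranked 9854th, so these genes run from the most abundant RNAs of the muscle to RNAs near the 1 FPKM that a gene had to reach in at least 1 library to be listed.

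The 250 bases before the start of a gene were available for 7 of the 10 genes. They are shown here because 4 of the 7 hold the letters CAGCTG, a form of the E-box that myogenic factors bind, and *Slc8a3*, the gene that rose, is among the 4. The *Slc8a3* stretch lies at chr12:81333181-81333430 on the minus strand (GRCm38.p6, sequence from RefSeq), and is given whole with CAGCTG in capitals.
Slc8a3: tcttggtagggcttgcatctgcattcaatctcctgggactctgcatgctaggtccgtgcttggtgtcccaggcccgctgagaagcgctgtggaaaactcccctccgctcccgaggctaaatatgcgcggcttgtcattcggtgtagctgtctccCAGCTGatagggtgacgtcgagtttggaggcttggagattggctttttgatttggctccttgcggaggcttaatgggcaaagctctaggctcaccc
The match in *Slc8a3* begins 96 bases before the start given by RefSeq. For *Cacna1s* (chr1:136052668-136052713, plus strand), *Casq1* (chr1:172220065-172220110, minus strand) and *Atp2a1* (chr7:126463103-126463148, minus strand), 20 bases on either side of the match are shown.
Cacna1s: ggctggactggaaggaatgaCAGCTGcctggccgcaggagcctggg
Casq1: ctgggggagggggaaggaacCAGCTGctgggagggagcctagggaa
Atp2a1: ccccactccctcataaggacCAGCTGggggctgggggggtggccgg
These matches begin 123, 195 and 55 bases before the RefSeq start of *Cacna1s*, *Casq1* and *Atp2a1*. The gene spans given below are those of GENCODE, from whose starts the same matches lie 62, 222 and 20 bases away. The start of *Slc8a3* is the same in both annotations, while the 250 bases of *Cacna1s* and *Atp2a1* run into the GENCODE span. The search read both strands, on which CAGCTG is the same word. Of 32851 mouse promoters of this length, 13.0% hold CAGCTG. That share is counted by promoter, whereas 4 of 7 is counted by gene, and the 7 genes had 8 promoters. The clock E-box CACGTG and the D-box TTATGTAA, held by 6.02% and 0.819% of all promoters, were found in 0 of the 7. A match describes the letters only. *Cacna1s*, *Casq1* and *Atp2a1* hold the same letters as *Slc8a3*, and none of these 3 passed the test.

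*Ryr1*, which encodes the ryanodine receptor that releases calcium from the reticulum, lies at chr7:29003344-29125179 on the minus strand. Its level was 186, 210 and 218 FPKM in Nogo-/- and 223, 212 and 212 FPKM in Nogo+/+. Sample 4 was the lowest of the 6, and the other 2 Nogo-/- libraries lay beside or within the control values. The difference was -0.12 (SE 0.060, 95% interval -0.26 to 0.0135) on the log2(FPKM + 1) scale after quantile normalization, which is the scale of every difference given below, with an adjusted p of 0.294 (limma). Without Sample 4 it was -0.050 with an adjusted p of 0.474.

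*Cacna1s*, at chr1:136052750-136119822 on the plus strand, encodes the voltage-sensing subunit of the dihydropyridine receptor. It was at 320, 337 and 316 FPKM in Nogo-/- and at 304, 261 and 290 FPKM in Nogo+/+. Every Nogo-/- library lay above every Nogo+/+ library, and Sample 2 was the lowest. The difference of 0.12 (SE 0.051, 95% interval 0.0036 to 0.24) did not pass (limma, adjusted p = 0.230). It was 0.19 without quantile normalization (limma, adjusted p = 0.113) and 0.072 without Sample 2. Without quantile normalization the median over all genes was itself 0.034, against -0.0067 with it.

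The voltage sensor and the release channel therefore had differences of opposite sign, neither of which passed the test. The ratio of *Ryr1* to *Cacna1s* within a library, which depends on neither depth nor scaling, was 0.579, 0.623 and 0.688 in Nogo-/- and 0.736, 0.811 and 0.731 in Nogo+/+. All Nogo-/- ratios were below all Nogo+/+ ratios, and the mean log2 ratio differed by -0.27. In a two-sided exact permutation test this gave p = 0.1, the smallest that 3 mice against 3 allow, and 0.25 after adjustment over the 5 ratios compared.

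*Casq1* encodes the calsequestrin of fast fibers, the main calcium-binding protein inside the reticulum, and lies at chr1:172209894-172219868 on the minus strand. Its level was 1813, 1786 and 2018 FPKM in Nogo-/- and 1790, 1685 and 1656 FPKM in Nogo+/+. Sample 6 was the highest, and the lowest Nogo-/- value lay within the control range. The difference was 0.055 (SE 0.038, 95% interval -0.033 to 0.14, limma adjusted p = 0.475). Without quantile normalization, which constrains genes of the highest ranks, it was 0.13 (adjusted p = 0.198), and without Sample 6 it was 0.0066.

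*Casq2*, the calsequestrin of heart and slow fibers, lies at chr3:102086415-102146514 on the plus strand. It was at 27.4, 28.3 and 24.6 FPKM in Nogo-/- and at 27.6, 28.3 and 25.8 FPKM in Nogo+/+. These values overlapped almost completely, with a difference of -0.081 (SE 0.066, 95% interval -0.23 to 0.071, limma adjusted p = 0.552). It was -0.025 without quantile normalization and ran from -0.12 without Sample 3 to -0.037 without Sample 2. *Casq2* made up 1.49%, 1.56% and 1.20% of the FPKM of both calsequestrins in Nogo-/-, against 1.52%, 1.65% and 1.53% in Nogo+/+. The ratio of *Casq1* to *Casq2* was 66.1, 63.1 and 82.1 in Nogo-/- and 64.9, 59.5 and 64.2 in Nogo+/+, with a log2 difference of 0.16 (two-sided exact permutation p = 0.3, adjusted 0.5). Without Sample 6 that difference was 0.040.

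Calcium returns to the store through the SERCA pumps. *Atp2a1*, at chr7:126445858-126463108 on the minus strand, encodes SERCA1, the pump of fast fibers. It was at 3584, 3619 and 3837 FPKM in Nogo-/- and at 3655, 3540 and 3539 FPKM in Nogo+/+. The groups overlapped, since Sample 1 exceeded Samples 4 and 5. The difference was 0.055 (SE 0.017, 95% interval 0.015 to 0.095, limma adjusted p = 0.124), and it was 0.040 (95% interval -0.031 to 0.11, adjusted p = 0.512) without quantile normalization and 0.0051 (adjusted p = 0.970) under median ratio scaling. Without Sample 4 it passed, at 0.070 with an adjusted p of 0.0449. *Atp2a1* ranked 13th of all genes, where quantile normalization constrains the values and their spread. With all libraries the SE was 0.031 without that normalization and 0.045 under median ratio scaling. No conclusion is drawn from the pass without Sample 4. *Atp2a1* alone accounted for 0.863% to 0.938% of all FPKM in Nogo-/- and 0.877% to 0.903% in Nogo+/+.

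*Atp2a2*, at chr5:122453513-122502225 on the minus strand, encodes SERCA2, the pump that slow fibers and heart use, though it is not restricted to them. Its level was 103, 128 and 116 FPKM in Nogo-/- and 134, 132 and 126 FPKM in Nogo+/+. Sample 5 lay within the control range and Samples 4 and 6 below it. The difference of -0.21 (SE 0.0775, 95% interval -0.39 to -0.033) did not pass (limma, adjusted p = 0.176), nor did it in any of the 12 alternative settings, where the adjusted p was 0.0680 to 0.406. Without Sample 4 it was -0.12.

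The RNA levels of *Atp2a1* and *Atp2a2* were compared within each library. The ratio of *Atp2a1* to *Atp2a2* was 34.7, 28.3 and 33.1 in Nogo-/- and 27.4, 26.8 and 28.0 in Nogo+/+. All Nogo-/- ratios were above all Nogo+/+ ratios, with Sample 5 close to the controls. The log2 difference was 0.22 (two-sided exact permutation p = 0.1, adjusted 0.25), in a test that could not reach 0.05 with 3 mice a group. How often ratios of other gene pairs separate was not computed, so the separation is given as a description only. As a share of both pumps, *Atp2a2* was 2.80%, 3.41% and 2.93% in Nogo-/- and 3.52%, 3.60% and 3.45% in Nogo+/+. The slow fiber markers had a median difference of -0.034 over 9 genes, and their summed levels overlapped between the groups as given above. Whether slow fibers, or the other cells whose markers are given below, had a part in this ratio was not tested.

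**Figure D2:**
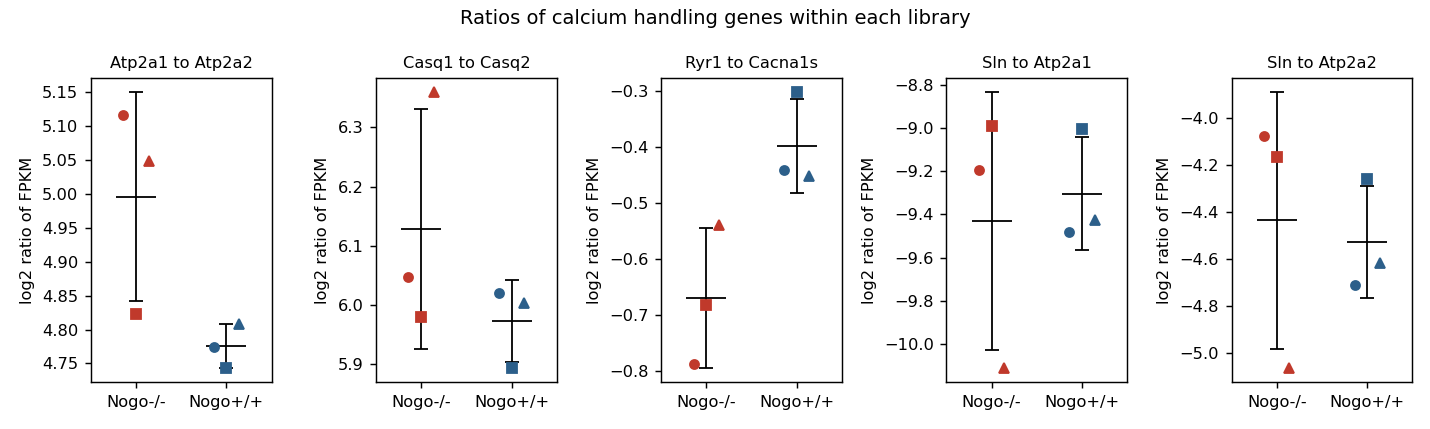
Ratios of FPKM of paired calcium handling genes within each library on a log2 axis, Nogo-/- left of Nogo+/+. Markers are the same libraries as in the plot of FPKM and bars are the mean ± SD of 3 libraries. *Atp2a1* to *Atp2a2* is higher and *Ryr1* to *Cacna1s* is lower in all 3 Nogo-/- libraries than in any Nogo+/+ library, whereas the other ratios overlap. How often ratios of other gene pairs separate was not computed.

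*Sln*, at chr9:53850164-53854560 on the plus strand, encodes sarcolipin, a small membrane protein that slows the SERCA pumps. It was at 6.12, 7.12 and 3.47 FPKM in Nogo-/- and at 5.11, 6.90 and 5.15 FPKM in Nogo+/+. Sample 6 was the lowest and Sample 5 the highest of the 6, so the Nogo-/- values spanned the control values on both sides. The gene has a single transcript, on which these levels correspond to about 112, 135 and 63 fragments in Nogo-/- and 93, 123 and 98 in Nogo+/+. The difference was -0.11 (SE 0.20, 95% interval -0.56 to 0.35, limma adjusted p = 0.807), and it was above 0 without Sample 6 or without Sample 2. The ratios of *Sln* to *Atp2a1* and to *Atp2a2* overlapped between the groups, with log2 differences of -0.13 and 0.092 (two-sided exact permutation p = 0.9 and 0.8).

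*Pvalb*, at chr15:78191114-78206400 on the minus strand, encodes parvalbumin, the soluble buffer that speeds relaxation of fast fibers. It was at 3549, 3333 and 3569 FPKM in Nogo-/- and at 3439, 3489 and 3487 FPKM in Nogo+/+. The control values fell inside the Nogo-/- range. The difference was 0.025 (SE 0.014, 95% interval -0.0064 to 0.057, limma adjusted p = 0.358). *Pvalb* ranked 15th of all genes, where quantile normalization constrains the values. Without that normalization the 95% interval was -0.064 to 0.0725 around a difference of 0.0042.

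*Slc8a3* encodes NCX3, an exchanger that moves calcium across the membrane against sodium and is found in skeletal muscle and brain. It lies at chr12:81197915-81333180 on the minus strand. Its level was 14.9, 16.9 and 14.9 FPKM in Nogo-/- and 11.2, 9.40 and 10.8 FPKM in Nogo+/+. The lowest Nogo-/- value exceeded the highest Nogo+/+ value, and the means were 15.6 ± 1.15 FPKM in Nogo-/- and 10.5 ± 0.937 FPKM in Nogo+/+ (SD, n = 3 each). The difference was 0.49 (SE 0.076, 95% interval 0.32 to 0.67), higher in 3 of 3 Nogo-/- libraries, and it passed (limma, adjusted p = 0.0108). If all fragments came from the longest transcript, these levels would rest on 1019, 1201 and 1008 fragments in Nogo-/- and on 757, 624 and 765 in Nogo+/+.

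*Slc8a3* passed in 11 of the 12 alternative settings, with differences of 0.43 to 0.53 and adjusted p of 0.00805 to 0.0518 over the 12. The exception left out Sample 2, the lowest Nogo+/+ library, where the difference was 0.43 and the adjusted p 0.0518. Without Sample 6, the library with keratinocyte markers, it was 0.50 with an adjusted p of 0.0293. An antisense gene, *Gm3693*, overlaps *Slc8a3* and is not in the table. The authors used a stranded kit, but whether their counting used strand is not given in the sources used here.

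**Figure D3:**
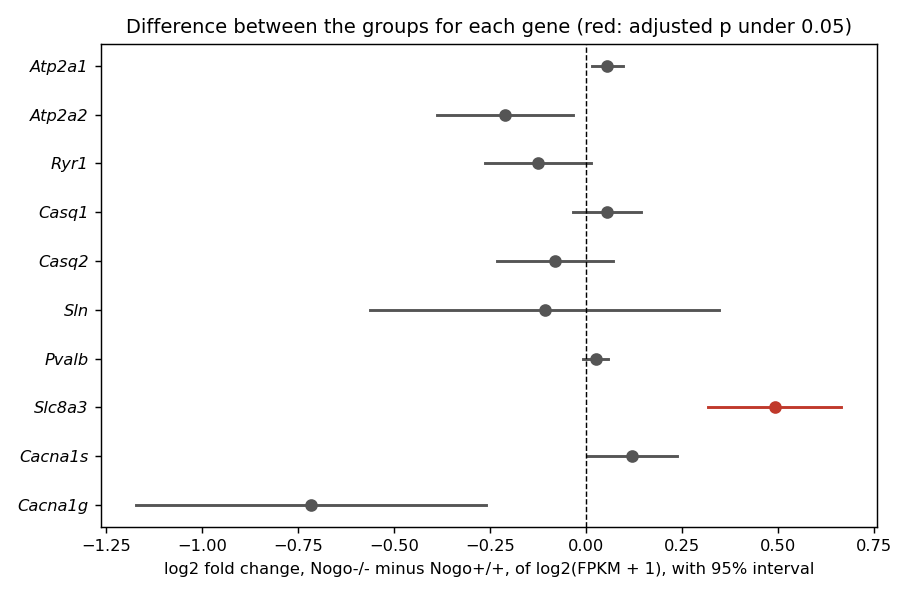
Difference of each of the 10 calcium handling genes, Nogo-/- minus Nogo+/+, on the log2(FPKM + 1) scale after quantile normalization, with its 95% interval from limma (n = 3 each). Red marks the gene that passed at an adjusted p under 0.05. *Slc8a3* stands at 0.49 and *Cacna1g* at -0.71 with an interval of -1.17 to -0.26, and the other 8 genes lie between -0.21 and 0.12.

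The related exchanger *Slc8a1*, or NCX1, was near the 1 FPKM needed for a gene to be listed, at 1.09, 1.25 and 1.44 FPKM in Nogo-/- and 1.24, 1.57 and 1.66 FPKM in Nogo+/+. Its difference was -0.17 (limma, adjusted p = 0.498). The longest stretch that the longest protein-coding transcripts of *Slc8a1* and *Slc8a3* share letter for letter is 45 bases. Other transcripts, and stretches that differ by a few letters, were not compared. The stretch was of like length for *Atp2a1* and *Atp2a2* (44 bases) and for *Cacna1g* and *Cacna1h* (41 bases). It was shorter for *Cacna1s* and *Cacna1c* (28 bases) and for the calsequestrins (25 bases).

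*Cacna1g*, at chr11:94408391-94474198 on the minus strand, encodes the pore of a low-voltage-activated T-type calcium channel. It was at 1.75, 0.936 and 1.21 FPKM in Nogo-/- and at 3.39, 1.66 and 3.19 FPKM in Nogo+/+. Samples 1 and 3 stood above all the others, and Sample 2 of Nogo+/+ lay below Sample 4 of Nogo-/-, so the groups overlapped. The mean was 1.30 ± 0.416 FPKM in Nogo-/- and 2.75 ± 0.943 FPKM in Nogo+/+ (SD, n = 3 each), and the Nogo-/- mean was 47.4% of the Nogo+/+ mean. The difference of -0.71 (SE 0.20, 95% interval -1.17 to -0.26) did not pass (limma, adjusted p = 0.0891). It was below 0 in all 12 alternatives and passed in 1 of them, the fit without Sample 2, at -0.94 with an adjusted p of 0.0336. On its longest transcript these levels would be 204, 113 and 140 fragments in Nogo-/- and 390, 188 and 384 in Nogo+/+.

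Sample 2 was thus the lowest Nogo+/+ library for *Slc8a3*, *Cacna1s* and *Cacna1g*. Leaving it out ended the call of *Slc8a3* and brought *Cacna1g* past the threshold, with each gene keeping its direction. For *Slc8a3* the fit without Sample 3 gave nearly the same adjusted p, 0.0489 against 0.0518 (limma), just inside the threshold. Calls over all genes fell from 573 to 188 without Sample 2 and to 192 without Sample 3.

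Markers of some other cells differed between the groups beside these results. Over all genes, 2.75% were lower and 1.89% higher in Nogo-/- by the same test (limma, adjusted p under 0.05). At an unadjusted p under 0.05 the share was 20.5% in either direction. The 10 endothelial markers summed to 134 to 158 FPKM in Nogo-/- and 177 to 200 FPKM in Nogo+/+, and 6 of them fell. Of their differences, 8 were below 0 and 2 above. These 2 were *Flt1* (0.12, limma adjusted p = 0.388), whose groups were separate, and *Esam* (0.015, adjusted p = 0.928). The 12 smooth muscle and pericyte markers summed to 1072 to 1134 FPKM in Nogo-/- and 1129 to 1144 FPKM in Nogo+/+, and 2 of them fell. At an unadjusted p under 0.05, 8 of these 12 were lower and 1 higher, with a median of -0.28. *Des*, which muscle fibers also express at a high level, made up most of that sum, and without it (a split made after its values were seen) the sums were 217 to 269 FPKM in Nogo-/- and 291 to 298 FPKM in Nogo+/+, with no overlap. Adipocyte markers summed to 982, 655 and 535 FPKM in Nogo-/- and 458, 533 and 541 FPKM in Nogo+/+. Of the 10, 1 rose, 7 were higher at an unadjusted p under 0.05, and the median was 0.52. The 1 that rose, *Plin4*, was at 49.4, 58.6 and 50.8 FPKM in Nogo-/- and 38.8, 35.9 and 36.4 FPKM in Nogo+/+. *Plin4* was highest in Sample 5, whereas the sum of the list was highest in Sample 4. The 7 satellite cell markers measured summed to 79.5 to 81.5 FPKM in Nogo-/- and 84.4 to 90.3 FPKM in Nogo+/+, and 1 of them, *Myod1*, fell. *Myod1* was at 9.36, 7.38 and 11.1 FPKM in Nogo-/- and 15.5, 16.0 and 16.2 FPKM in Nogo+/+. *Itga7*, the highest of the 7, overlapped at 49.5, 51.0 and 46.1 FPKM in Nogo-/- and 51.0, 48.3 and 51.6 FPKM in Nogo+/+. Of the 7 differences, 3 were above 0 and 4 below, so the sums do not describe the list as a whole. The 10 Schwann cell and nerve markers summed to 259 to 319 FPKM in Nogo-/- and 248 to 320 FPKM in Nogo+/+, with 0 past the test and 0 at an unadjusted p under 0.05. The 9 macrophage and leukocyte markers measured summed to 47.0 to 75.8 FPKM in Nogo-/- and 51.3 to 82.9 FPKM in Nogo+/+, with 0 at an unadjusted p under 0.05. None of these lists had a marker at 0 in any library. The part of these cells in the values and ratios of the 10 calcium handling genes was not tested. In whole muscle, fewer cells of a type and less RNA per cell cannot be told apart.

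To place the 10 genes in the wider system, 94 other calcium genes were listed in 7 groups by role, and 67 of them were in the table. None rose and none fell at an adjusted p under 0.05 (limma), which is 0 of 67 beside the 4.64% of all genes. At an unadjusted p under 0.05 there were 14 of 67, 7 higher and 7 lower, against 20.5% of all genes. The groups did not overlap for 18 of the 67, against 25.9% of all genes. The median difference was -0.012, beside -0.0067 over all genes.

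The triad list, with the proteins that hold the surface membrane to the reticulum and regulate release, had 20 of 23 genes in the table. It had 3 genes higher and 5 lower at an unadjusted p under 0.05 and a median of -0.0605. Uptake and luminal storage had 11 of 12 genes measured, 1 higher at that level and a median of 0.011. Store-operated entry, by which calcium enters from outside when the store is empty, had 9 of 13 measured, with 2 higher, 1 lower and a median of 0.014. The 12 mitochondrial calcium transport genes were all measured, with 0 at that level and a median of -0.0044, and the 7 of 18 other voltage-gated channel genes measured had 0 and a median of 0.021. Membrane export had 5 of 10 genes measured, 1 lower and a median of -0.17, and the buffers had 3 of 6 measured, 1 higher and a median of 0.19.

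**Figure D4:**
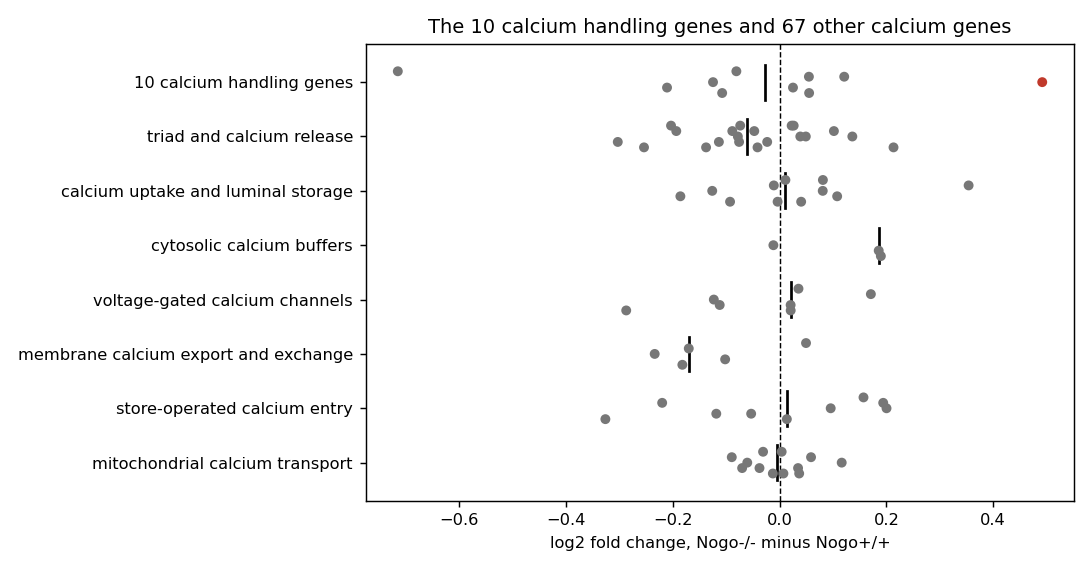
Difference of each measured gene, Nogo-/- minus Nogo+/+, on the log2(FPKM + 1) scale, for the 10 calcium handling genes and the 7 lists of other calcium genes. Points are genes, red marks an adjusted p under 0.05, and the vertical bar is the median of the list. Of these genes only *Slc8a3* is red, and the 67 others lie between -0.33 and 0.35.

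At an adjusted p under 0.1 (limma) there were 7 of the 67, against 8.14% of all genes. These 7 are named here after their values were seen, and none passed the threshold of 0.05. *Cacng1*, the gamma subunit of the dihydropyridine receptor that *Cacna1s* forms, was at 234, 249 and 232 FPKM in Nogo-/- and 214, 191 and 198 FPKM in Nogo+/+. Its groups were separate, as those of *Cacna1s* were, and Sample 2 was again the lowest. The difference was 0.21 with an adjusted p of 0.0509 (limma).

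*Orai1*, the pore of store-operated entry, was at 33.4, 32.4 and 33.8 FPKM in Nogo-/- and 28.1, 26.6 and 28.6 FPKM in Nogo+/+, a difference of 0.20 (limma, adjusted p = 0.0816). *Saraf*, a reticulum protein that turns this entry off, was at 110, 116 and 111 FPKM in Nogo-/- and 97.5, 97.0 and 99.4 FPKM in Nogo+/+, a difference of 0.16 (limma, adjusted p = 0.0555). The groups of both genes were separate. *Strit1*, listed in the annotation as *Gm34302*, encodes DWORF, a micropeptide that raises SERCA activity and thus acts opposite to sarcolipin. It was at 4.74, 5.40 and 5.07 FPKM in Nogo-/- and 4.17, 3.35 and 3.42 FPKM in Nogo+/+, also without overlap, and its difference was 0.35 (limma, adjusted p = 0.0681).

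The other 3 of the 7 were lower in Nogo-/- and came from the triad list, and their groups did not overlap. *Asph*, whose products include the reticulum proteins junctin and junctate, was at 149, 150 and 153 FPKM in Nogo-/- and 162, 162 and 162 FPKM in Nogo+/+ (limma, adjusted p = 0.0639). *Homer2*, a scaffold protein that binds ryanodine and other calcium channels, was at 8.65, 10.1 and 9.71 FPKM in Nogo-/- and 12.1, 11.6 and 10.9 FPKM in Nogo+/+, a difference of -0.30 (limma, adjusted p = 0.0739). *Tmem38b*, a cation channel of the reticulum that carries counter-current during release, was at 25.8, 26.1 and 24.7 FPKM in Nogo-/- and 27.3, 28.7 and 29.4 FPKM in Nogo+/+ (limma, adjusted p = 0.0784).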

How the data were processed

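Polyadenylated RNA of gastrocnemius from 3 Nogo-/- and 3 Nogo+/+ mice was sequenced. The authors made TruSeq stranded libraries and, as the methods and the notes of the submitters have it, used CASAVA 1.8.2, cutadapt 1.4.2, STAR 2.6.1, the GRCm38.p6 genome and Cufflinks 2.2.1. The deposited table holds FPKM for genes at 1 or more in at least 1 library. Another 6 columns with normalized log2 values by the authors were not used, since only 1 set of columns could be tied to the 3 labelled samples of each group, so the alternative that needed them was not run. The columns of the table give sample numbers, and their group comes from the heading of the study's own table of these numbers. Whether samples of a group shared litters or cages is not given, so p-values measure the spread between these mice.

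FPKM were quantile normalized over 12353 genes and tested as log2(FPKM + 1) with limma 3.58.1 in R 4.3.3 (lmFit, eBayes with a mean-variance trend, no covariates), with Benjamini-Hochberg adjustment over all genes and a threshold of 0.05. The pseudocount of 1 understates differences of low genes such as *Cacna1g*. The test was first tried on simulated data. The permutation procedure of the study was not run here. For ratios, exact two-sided permutation tests were run in SciPy 1.17.1, using Python 3.11.15, NumPy 2.4.6 and pandas 2.3.3, and figures were drawn with matplotlib 3.10.9. Depth was recovered from the steps of low FPKM, of which 94.9% to 96.3% lay within 0.1 of a whole fragment, so 1 FPKM over 1 kb is about 13.5 to 14.4 fragments. GENCODE M21 (GRCm38) gave symbols and positions and matched 12347 of 12353 identifiers, and promoters from RefSeq.

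The members and lists were chosen with earlier results of these data known. Named are the 10 genes, *Rtn4*, any gene past the threshold in the other calcium lists (at most 4 a list, of which there were 0) and, of the fiber type lists, up to 3 markers of highest mean FPKM (*Tnnt3*, *Tnnc2*, *Tnni2*, *Myl2*, *Myl3* and *Tnnc1*, reported as summed levels of their lists). Other genes were named after their values were seen. There were 12 alternatives: adding 0.1 in place of 1, keeping genes whose mean FPKM reached 1, no quantile normalization, median ratio scaling, no mean-variance trend, sample weights and leaving out each library in turn.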

Additional observations from a re-analysis of the deposited data

How the results depend on the processing

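The count of the 10 genes past the threshold was 1 in every alternative that kept all 6 libraries, and 1 to 2 when a library was left out. That count holds *Slc8a3* in each but the fit without Sample 2, where the 1 gene was *Cacna1g*, lower in Nogo-/-. Over all genes, 421 to 653 passed with all libraries, against 573 as reported, and 188 to 434 with a library left out, from 188 without Sample 2 and 192 without Sample 3. Without quantile normalization 302 genes were higher and 234 lower, against 233 higher and 340 lower as reported. The median difference over all genes was 0.034 in that setting and -0.0067 as reported, so single genes there carry a shift shared by all genes.

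Of the 67 other calcium genes, 0 passed as reported. With a pseudocount of 0.1, 1 passed (*Cacng1*), with median ratio scaling 1 (*Cacng1*), with a mean FPKM of at least 1 2 (*Cacng1* and *Saraf*), without quantile normalization 3 (with *Orai1*), and with sample weights 3 (*Cacng1*, *Saraf* and *Strit1*). With a library left out, 0 to 1 passed: *Cacng1* without Sample 1, *Hrc* (higher) without Sample 4 and *Jph2* (lower) without Sample 6.

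*Pvalb* turned to -0.031 under median ratio scaling. With a library left out, *Sln* ran from -0.27 to 0.12, being 0.023 without Sample 2 and 0.12 without Sample 6. The log2 ratio of *Sln* to *Atp2a1* ran from -0.35 to 0.21, being 0.023 without Sample 2 and 0.21 without Sample 6, and that of *Sln* to *Atp2a2* ran from -0.087 to 0.41, being -0.087 without Sample 4 and -0.043 without Sample 5. The ratios of *Atp2a1* to *Atp2a2* (0.16 to 0.31), of *Ryr1* to *Cacna1s* (-0.34 to -0.21) and of *Casq1* to *Casq2* (0.040 without Sample 6 to 0.23 without Sample 5) kept their sign. The cause of these shifts was not tested.

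No paired analysis was possible because the table names its libraries without the replicate numbers used in the labels. A fit on the normalized log2 columns of the authors was not run, for the reason given with the methods. With 3 mice a group no permutation p can go below 0.1, and the p from limma borrows spread from other genes. *Cacna1g* and *Sln* rest on the fewest fragments of the 10 genes.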
